A study of Caenorhabditis elegans with 4 samples.

Results

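The genes described here are the F-box genes of the *fbxa*, *fbxb* and *fbxc* families of *Caenorhabditis elegans*. They were taken by name: every row of the deposited count table whose gene name is *fbxa*, *fbxb* or *fbxc* followed by a number. The rule used no measured value. It gave 361 of the 19913 genes in the table, of which 197 were *fbxa*, 110 were *fbxb* and 54 were *fbxc*.

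An F-box protein is the part of an SCF ubiquitin ligase that binds the substrate. The cullin CUL-1 forms the scaffold of the ligase, the RING protein RBX-1 recruits the ubiquitin-conjugating enzyme, and a SKP1-related adaptor (an SKR protein) holds the F-box. The *fbx* families are greatly expanded in nematodes, lie largely in clusters of neighbouring copies, and mostly have no assigned substrate. Many *fbxa* proteins carry, next to the F-box, the FTH domain that is also found in the germline sex determination protein FOG-2. The *fbxb* proteins carry an F-box-associated domain in its place.

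RNA-Seq was carried out on whole L1 larvae, the first larval stage, of wild-type N2 and of *pry-1(mu38)* animals, also called the mutant below. PRY-1 is the worm Axin, a scaffold protein that holds down WNT signaling, and *mu38* is a nonsense allele that was outcrossed before use. Both strains were grown on NGM plates at 20 °C and synchronized by repeated bleaching, and neither received any other treatment. Each strain had 2 libraries. The study calls them biological replicates, and neither its methods nor the labels say whether the cultures were separate. The p-values below set a strain difference against the spread between these libraries, which is estimated over both strains together. An exact two-sided permutation test of 2 against 2 cannot give a p below 0.33, so single values and family sums were not tested this way. In whole animals, fewer cells of a type and less RNA per cell cannot be told apart.

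The libraries held 27741375 to 33230854 counts on genes. The N2 libraries were further apart than the mutant libraries: the SD over tested genes of the log2 difference between replicates was 0.80 in N2 and 0.46 in the mutant. Germline markers summed to 35.5 CPM (counts scaled to one common library total) in N2 replicate 2 and to 17.97 to 20.3 CPM in the other libraries, and all 6 were highest there. All 4 body wall muscle markers were also highest in N2 replicate 2. All 4 intestine, 5 neuron and 5 hypodermis markers had counts. The intestine markers summed to 1601 and 1826 CPM in N2 and 1521 and 1468 in the mutant. The neuron markers summed to 759 and 946 CPM in N2 and 768 and 800 in the mutant. The hypodermis markers summed to 204 and 135 CPM in N2 and 156 and 174 in the mutant, highest in N2 replicate 1. Of the markers of adults and later larvae, the yolk protein genes *vit-2* (0.585 and 6.10 CPM in N2, 122 and 134 in the mutant) and *vit-6* (2.12 and 5.20 against 96.2 and 90.3 CPM) were much higher in the mutant. The cuticle collagen gene *col-19* (1.46 and 7.43 against 2.61 and 2.93 CPM) and the sperm gene *spe-9* (2.05 and 2.21 against 2.24 and 2.31 CPM) were not. *lin-29*, another of these markers, was higher in both mutant libraries (6.07 and 5.62 against 9.41 and 7.86 CPM). Of the 14 embryo markers, 13 were in the table and 5 were tested. *cpg-2* was much higher in the mutant (0.622 and 1.30 against 4.78 and 4.99 CPM). *mex-3* (52.2 and 45.1 against 57.96 and 54.9 CPM) and *cpg-1* (4.50 and 4.56 against 5.65 and 6.02 CPM) were also higher. In *med-2* and *pos-1* the strains overlapped. The other embryo markers in the table were too low to test, such as *end-1* (3 and 5 counts in N2, 3 and 7 in the mutant) and *pes-10* (4 and 13 against 2 and 5). Among these low markers the strains overlapped except in *end-3*, which was lower in the mutant (5 and 6 counts against 4 and 3). The part of these differences in the values below was not tested. *pry-1* itself had 1926 and 2048 counts in N2 and 3812 and 3471 in the mutant. A gene-level count does not read a nonsense change, so it does not check the labels.

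Detection separated the families. At least 1 count in at least 1 library was found for 190 *fbxa* genes (96.4%), 107 *fbxb* genes (97.3%) and 44 *fbxc* genes (81.5%), against 96.5% of all genes in the table. Counts in all 4 libraries were found for 169 *fbxa* genes (85.8%), 55 *fbxb* genes (50%) and 37 *fbxc* genes (68.5%), against 86.0% of all genes. The *fbxa* family was thus detected about as often as genes in general, and *fbxb* genes were as often detected in some library but less often in all 4.

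The median *fbxa* gene had 31 and 40 counts in N2 and 27 and 32 in those of the mutant. The median *fbxb* gene had 1.5 and 7 counts in N2 and 1 and 2 in the mutant, and the median *fbxc* gene had 3 and 11.5 in N2 and 3 and 5 in the mutant. In both families N2 replicate 2 stood above the other 3 libraries. A filter that keeps genes with about 10 counts in enough libraries (filterByExpr) passed 132 *fbxa* (67.0%), 26 *fbxb* (23.6%) and 23 *fbxc* genes (42.6%), against 15101 of all genes (75.8%). In other large worm families, 24 of 114 *srw* receptor genes (21.1%), 113 of 259 *clec* lectin genes (43.6%) and 52 of 86 *bath* and *math* genes (60.5%) passed.

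**Figure D1:**
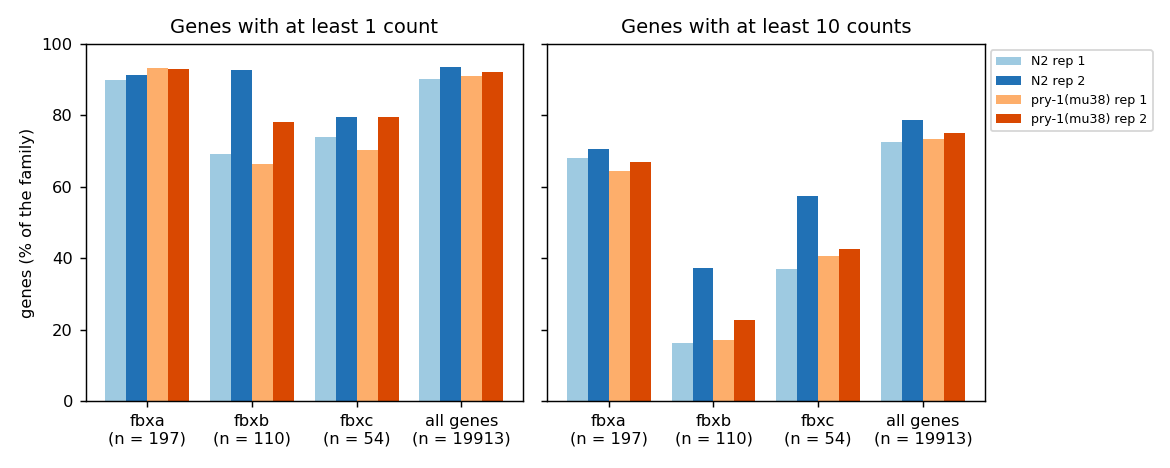
Share of the genes of each family, and of all genes, with at least 1 count (left) and at least 10 counts (right) in each library, in percent of the family. One bar is one library. The *fbxb* share with at least 10 counts was 37.3% in N2 replicate 2 and 16.4% to 22.7% in the other 3 libraries.

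The number of *fbxb* genes detected followed one library rather than a strain. It was 76 and 102 in N2 replicates 1 and 2, and 73 and 86 in mutant replicates 1 and 2. When all libraries were thinned to the depth of the smallest, the numbers were 76, 100, 69 and 83. N2 replicate 2 stayed the highest at equal depth, and the N2 and mutant libraries overlapped. N2 replicate 2 had the highest level of the 4 libraries for 77 of the 110 *fbxb* genes (70.0%), for 63 *fbxa* genes (32.0%) and for 23 *fbxc* genes (42.6%), against 39.5% of all genes. For *fbxb*, the other libraries were highest for 7 (N2 replicate 1), 10 and 13 genes (the mutant), where 18.5%, 26.2% and 12.3% of all genes were. On chromosome II, where 62 of the *fbxb* genes lie, 59 were detected but only 7 passed the filter.

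The summed level of the *fbxa* family was 1221 and 1052 CPM in N2 and 956 and 967 CPM in the mutant. Both mutant libraries lay below both N2 libraries. The member with the largest share of this sum, *fbxa-24*, had 191 and 190.0 CPM in N2 and 125 and 130.1 CPM in the mutant. Of the 132 tested *fbxa* genes, 43 were lower and 30 higher without overlap, and in 59 the strains overlapped. The lower sum is thus not a drop shared by all members. For *fbxb* the sum was 28.1 and 55.8 CPM in N2 and 29.1 and 32.3 CPM in the mutant, and N2 replicate 2 stood alone. For *fbxc* the sum was 117 and 136 CPM in N2 and 120 and 116 CPM in the mutant, with the strains overlapping.

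**Figure D2:**
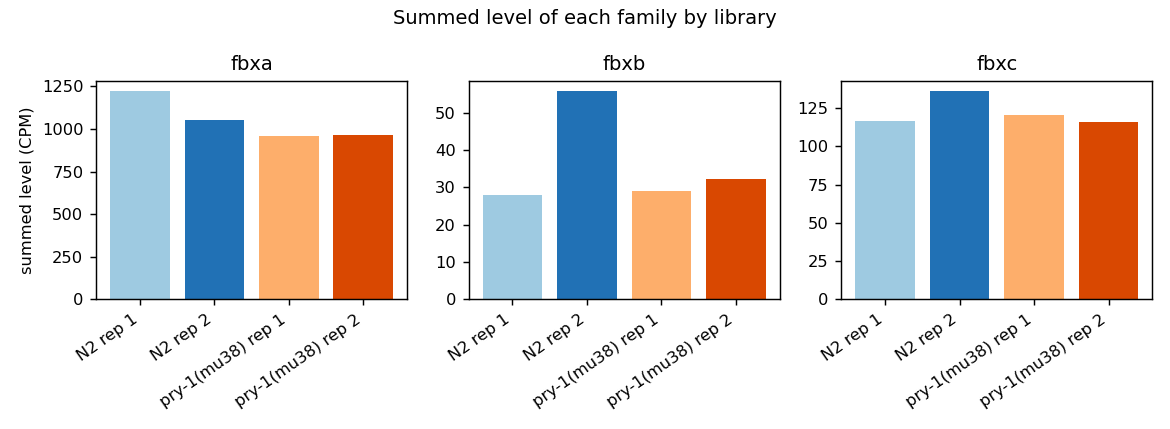
Summed level of each family in each library, in CPM, with one bar per library and a separate axis from 0 for each family. Both *pry-1(mu38)* bars lie below both N2 bars for *fbxa* only, and N2 replicate 2 is the highest bar for *fbxb* and *fbxc*.

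No count in any library was found for 7 *fbxa* genes (*fbxa-17*, *fbxa-91*, *fbxa-102*, *fbxa-112*, *fbxa-148*, *fbxa-151* and *fbxa-208*), 3 *fbxb* genes (*fbxb-28*, *fbxb-32* and *fbxb-39*) and 10 *fbxc* genes (*fbxc-1* to *fbxc-5*, *fbxc-9* to *fbxc-12* and *fbxc-16*). A count of 0 allows a level of up to 3 counts, which is 0.0907 to 0.110 CPM in these libraries. Of the 10 *fbxc* genes, 9 lie in 1 run of 10 *fbxc* genes on chromosome IV, with no other protein-coding gene or pseudogene between them. The only gene of that run with counts was *fbxc-8*, with 1 and 4 counts in N2 and 1 and 4 in the mutant. The genomic spans in this run alternate between 2 sizes, 1376 bases for *fbxc-1* to *fbxc-5* and 1781 or 1782 bases for *fbxc-8* to *fbxc-12*. Reads that mapped to several places, 8.04% to 11.6% of a library, were given to no gene. A count of 0 for near-identical copies can therefore not be told apart from reads lost to this rule, and the copies' sequences were not compared here.

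Levels were unequal within each family. Per kilobase of transcript, *fbxa-24* on chromosome II was the highest member, at a mean of 95.3 CPM per kb, and it held 15.1% of the summed *fbxa* level. It was followed by *fbxa-1* (35.7), *fbxa-37* (35.6) and *fbxa-69* (35.5 CPM per kb), whose order is within the spread between libraries. In *fbxc* the highest were *fbxc-52* (19.5), *fbxc-54* (11.3), *fbxc-36* (9.04) and the annotated pseudogene *fbxc-41* (7.43 CPM per kb). *fbxc-52* held 22.1% of the summed *fbxc* level and the top 5 genes together 61.2%. The highest *fbxb* genes were far lower, with *fbxb-69* at 3.43, *fbxb-88* at 3.07, *fbxb-14* at 2.51 and *fbxb-53* at 1.59 CPM per kb.

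**Figure D3:**
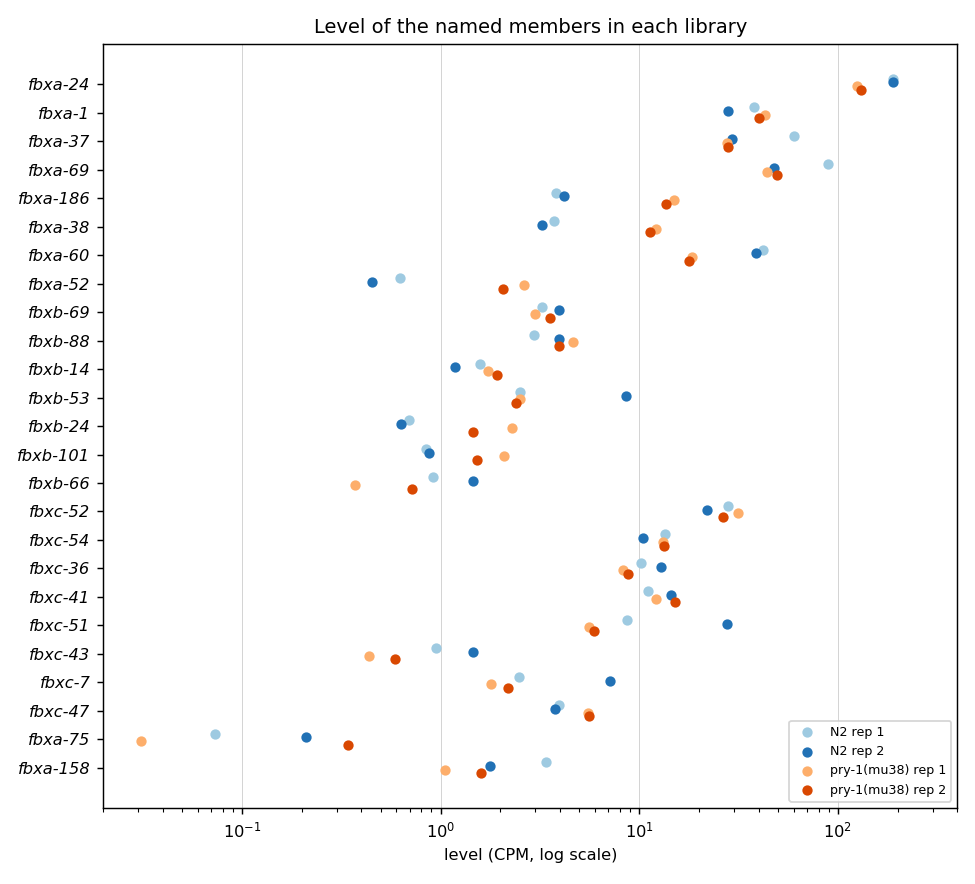
Level of the named members in each library, in CPM on a log axis, with one point per library. The points of *fbxa-186*, *fbxa-38*, *fbxa-60* and *fbxa-52* separate by strain, which was a condition of their choice. *fbxa-37*, *fbxa-69*, *fbxb-53*, *fbxc-51* and *fbxc-7* have one N2 library apart from the other 3.

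The comparison of *pry-1(mu38)* with N2 asked which genes change when WNT signaling loses its Axin scaffold. With the quasi-likelihood test of edgeR and Benjamini-Hochberg adjustment over all 15101 tested genes, no member of any family passed an adjusted p of 0.05, and 0.00662% of all tested genes did (1 gene). The lowest adjusted p was 0.307 in *fbxa* and 0.337 in both *fbxb* and *fbxc*. At an unadjusted p under 0.05, 9 *fbxa* genes were higher in *pry-1(mu38)* and 16 lower, 2 *fbxb* genes were higher and 0 lower, and 0 *fbxc* genes were higher and 2 lower. In all tested genes the shares were 6.1% higher and 8.53% lower. For *fbxa* that is 6.82% higher and 12.1% lower, so with all 4 libraries the share of lower genes was above the background. With one library left out, this held only without N2 replicate 2 (20.1% beside 11.8%). The lower share was 27.4% beside 27.9% without N2 replicate 1, and it was below the background with either mutant library left out.

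The median log2 fold change of the tested members was −0.30 for *fbxa*, −0.12 for *fbxb* and −0.028 for *fbxc*, beside −0.023 over all tested genes. Of the *fbxa* genes, 82 had a negative and 50 a positive value. In *fbxb* the split was 14 to 12, and in *fbxc* 12 to 11. The *fbxa* median was negative under every scaling tried, whereas the *fbxb* and *fbxc* medians turned positive with quantile normalization (0.074 and 0.16). Over the same 132 *fbxa* genes, the median was −0.052 when N2 replicate 1 was left out and −0.16 when N2 replicate 2 was. Over the same 26 *fbxb* genes it was −0.44 and 0.25, so its sign changed with the N2 library that was left out. When the filter was applied anew, the *fbxb* median without N2 replicate 1 was −1.18 over 38 genes.

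The 2 strains did not overlap for 30 higher and 43 lower of the 132 *fbxa* genes, 6 higher and 5 lower of the 26 *fbxb* genes, and 5 higher and 7 lower of the 23 *fbxc* genes. The background was 29.1% higher and 28% lower in all tested genes. The *fbxa* shares were 22.7% and 32.6%, the *fbxb* shares 23.1% and 19.2%, and the *fbxc* shares 21.7% and 30.4%. None of the 3 families stood far from the background by this measure.

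**Figure D4:**
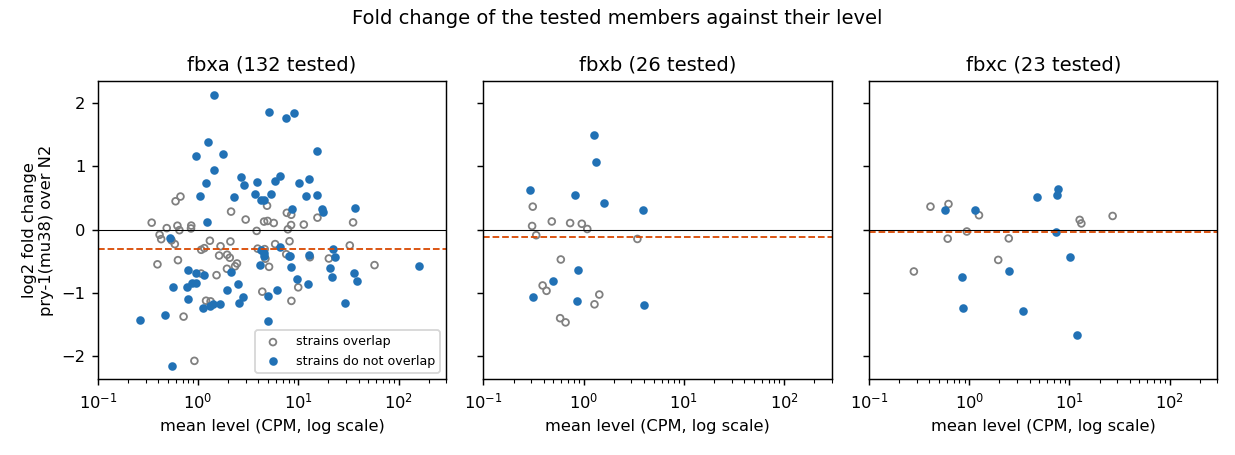
Log2 fold change (*pry-1(mu38)* over N2) of each tested member against its mean level in CPM on a log axis, by family. Filled points are genes whose strains do not overlap, open points those whose strains overlap, and the dashed line is the family median (−0.30 for *fbxa*, −0.12 for *fbxb*, −0.028 for *fbxc*).

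Among tested members whose strains did not overlap, those with the smallest p were all *fbxa* genes. *fbxa-186*, annotated as a pseudogene on chromosome V, had 104 and 138 counts in N2 and 481 and 439 in the mutant. Both mutant libraries were above both N2 libraries by a wide margin. Its log2 fold change was 1.84 (SE 0.23), with an adjusted p of 0.307 by the quasi-likelihood test of edgeR. Every SE given here is the absolute log2 fold change divided by the square root of that test's F statistic.

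*fbxa-38* on chromosome III, which overlaps another annotated gene, had 102 and 107 counts in N2 and 392 and 364 in the mutant. The replicates were close and the strains were well apart, with a log2 fold change of 1.76 (SE 0.25). *fbxa-52* on the X chromosome was a low gene with the same order, at 17 and 15 counts in N2 and 85 and 66 in the mutant. Its log2 fold change was 2.13 (SE 0.40).

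*fbxa-60* on chromosome III went the other way. It had 1145 and 1287 counts in N2 and 597 and 570 in the mutant, so both mutant libraries were below both N2 libraries. The log2 fold change was −1.15 (SE 0.17). For *fbxa-38*, *fbxa-52* and *fbxa-60* the adjusted p by edgeR's quasi-likelihood test was 0.337.

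Tools with another model of the spread called some of these genes. DESeq2 called 5 *fbxa* genes higher and 2 lower (background 1.19% and 2.03% of tested genes), and edgeR's exact test called 4 higher and 1 lower (background 0.967% in each direction). Neither called any *fbxb* or *fbxc* gene. Both tools called *fbxa-186*, *fbxa-38*, *fbxa-52*, *fbxa-60* and *fbxa-172*, and DESeq2 alone called *fbxa-64* and *fbxa-59*. *fbxa-172*, *fbxa-64* and *fbxa-59* were named after their values were seen. *fbxa-172* had 41 and 94 counts in N2 and 279 and 231 in the mutant, *fbxa-64* had 311 and 225 against 708 and 666, and *fbxa-59* had 1220 and 1738 against 918 and 871. In these 3 genes the strains did not overlap, and *fbxa-59* overlaps another annotated gene.

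The number of *fbxa* calls depended on the N2 libraries. Without N2 replicate 1 the quasi-likelihood test called 33 of 146 *fbxa* genes (22.6%), 6 of 38 *fbxb* genes (15.8%) and 4 of 29 *fbxc* genes (13.8%), beside 28.9% of all tested genes. Without N2 replicate 2 it called 11 of 139 *fbxa* genes (7.91%) and 0 *fbxb* or *fbxc* genes, beside 1.75% of all tested genes. Without mutant replicate 1 or 2 it called 0 members, beside 0.328% and 3.04% of all tested genes. A strain left with 1 library is assumed here to vary like the other strain.

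At an unadjusted p under 0.05, leaving out N2 replicate 1 gave 28 higher and 40 lower *fbxa* genes (19.2% and 27.4%), beside 25.9% and 27.9% of all tested genes. Leaving out N2 replicate 2 gave 10 and 28 (7.19% and 20.1%), beside 10.4% and 11.8%. Without mutant replicate 1 the numbers were 5 and 2 (3.36% and 1.34%), beside 1.18% and 3.37%. Without mutant replicate 2 they were 5 and 4 (3.40% and 2.72%), beside 1.73% and 7.81%. A fit with the replicate number as a block called 8 *fbxa* genes higher and 9 lower, 1 *fbxb* gene higher and 2 *fbxc* genes lower, beside 4.59% higher and 11.5% lower of all tested genes.

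Among the *fbxa* genes of highest level, *fbxa-24* had 5207 and 6289 counts in N2 and 4014 and 4173 in the mutant. In CPM the N2 libraries were almost equal, at 191 and 190.0, and both mutant libraries were lower, at 125 and 130.1. The log2 fold change was −0.58 (SE 0.14), with an adjusted p of 0.337 by the quasi-likelihood test of edgeR, and it lay between −0.59 and −0.53 with any one library left out. *fbxa-1* had 37.8 and 27.95 CPM in N2 and 42.8 and 40.3 CPM in the mutant, a log2 fold change of 0.34 (SE 0.21).

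*fbxa-37* and *fbxa-69* were set apart by N2 replicate 1. *fbxa-37* had 60.3 and 29.2 CPM in N2 and 27.5 and 28.1 CPM in the mutant. *fbxa-69* had 89.5 and 47.8 CPM in N2 and 44.1 and 49.2 CPM in the mutant. Their log2 fold changes, −0.68 and −0.56, were −0.036 and −0.0063 without N2 replicate 1.

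A rise in N2 replicate 1 alone was seen in several *fbxa* genes. This pattern was noticed after the values were seen. N2 replicate 1 was at least 2-fold above each other library for 7 of the 132 tested *fbxa* genes (5.30%), beside 0.709% of all tested genes (107 genes), and for 0 tested *fbxb* and *fbxc* genes. The genes were *fbxa-3*, *fbxa-30*, *fbxa-37*, *fbxa-50*, *fbxa-128*, *fbxa-144* and *fbxa-154*. *fbxa-50* had 567 and 89 counts in N2 and 193 and 151 in the mutant. *fbxa-3* had 1050 and 274 counts in N2 and 520 and 573 in the mutant, although it overlaps other annotated genes. No *fbx* member stood 2-fold above the rest in either mutant library, where 0.0464% and 0.0596% of all tested genes did.

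N2 replicate 2 stood apart for another set: 8 *fbxa* (6.06%), 6 *fbxb* (23.1%) and 2 *fbxc* genes (8.70%) were at least 2-fold above each other library there, beside 11.1% of all tested genes. The share was below the background for *fbxa* and above it for *fbxb*. Germline and muscle markers were highest in the same library, and their part in these values was not tested.

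*fbxa-158* and *fbxa-75* encode F-box subunits of a ligase built on CUL-6, another cullin, which acts in the intracellular pathogen response of the intestine. *fbxa-158* on chromosome II had 93 and 59 counts in N2 and 34 and 51 in the mutant. Both mutant libraries were below both N2 libraries, and N2 replicate 1 was the highest. The log2 fold change was −0.96 (SE 0.47), with an adjusted p of 0.359 by edgeR's quasi-likelihood test, and it was −0.40 without N2 replicate 1. *fbxa-75* on chromosome III had 2 and 7 counts in N2 and 1 and 11 in the mutant and was too low to test.

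The other genes of this ligase followed the same order in part. The cullin gene *cul-6* had 3164 and 707 counts in N2 and 603 and 699 in the mutant, so that N2 replicate 1 alone was high. The adaptor gene *skr-3* had 4557 and 4800 counts in N2 and 2660 and 2935 in the mutant. Its strains did not overlap, with a log2 fold change of −0.84 (SE 0.16) and an adjusted p of 0.337 by edgeR's quasi-likelihood test. Of the list for this ligase, 6 of 7 genes were in the table and 5 were tested. The adaptor gene *skr-5* had 4.06 and 2.15 CPM in N2 and 2.24 and 2.31 CPM in the mutant, again with N2 replicate 1 alone high. A further adaptor gene, *skr-4*, had 2.49 and 3.41 CPM in N2 and 1.77 and 1.96 CPM in the mutant. Its strains did not overlap, and N2 replicate 2 was the highest. All 5 had log2 fold changes below 0 (median −0.84), as 51.7% of all tested genes did, and none passed the adjusted test. For *cul-6* and *skr-5* the N2 and mutant libraries overlapped.

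The wider set of SCF core subunits, neddylation factors and SKR adaptors held 31 genes, of which 29 were in the table and 23 were tested. None passed the adjusted test, and the median log2 fold change was −0.043. Of the 23 tested genes, 0 were higher and 3 lower at an unadjusted p under 0.05 (*skr-3*, *skr-7* and *skr-9*). In all tested genes 6.1% were higher and 8.53% lower. Both mutant libraries were above both N2 libraries for 8 of the 23 genes and below them for 7, beside 29.1% and 28% of all tested genes. The adaptor *skr-1* had 10757 and 14261 counts in N2 and 11617 and 11712 in the mutant. *cul-1*, the scaffold, had 2387 and 2083 counts in N2 and 3016 and 2868 in the mutant, a log2 fold change of 0.28 (SE 0.21).

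*skr-7* had 10 and 80 counts in N2 and 3 and 6 in the mutant, and *skr-9* had 9 and 35 against 3 and 7. Both were highest in N2 replicate 2, the library in which most *fbxb* genes were highest. Of 11 F-box genes outside the *fbx* families, 9 were in the table and were tested. At an unadjusted p under 0.05, 1 was higher (*skpt-1*, log2 fold change 0.89, SE 0.31) and 1 lower (*mfb-1*, log2 fold change −0.54, SE 0.17). The shares of all tested genes were 6.1% higher and 8.53% lower. *lin-23*, whose product limits cell division, and *sel-10*, which acts on Notch, had log2 fold changes of −0.018 and −0.036.

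Among the tested *fbxb* genes whose strains did not overlap, those with the smallest p were low. *fbxb-24* on chromosome III had 19 and 21 counts in N2 and 74 and 47 in the mutant. Both mutant libraries were higher, with a log2 fold change of 1.499 (SE 0.42) and an adjusted p of 0.337 by edgeR's quasi-likelihood test. It kept a log2 fold change between 1.15 and 1.81 with any one library left out.

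*fbxb-101* on chromosome I had 23 and 29 counts in N2 and 67 and 49 in the mutant, a log2 fold change of 1.07 (SE 0.37). *fbxb-66*, also on chromosome I, had 25 and 48 counts in N2 and 12 and 23 in the mutant, a log2 fold change of −1.13 (SE 0.50). For *fbxb-66* the nearest libraries of the 2 strains differed by 2 counts before scaling.

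*fbxb-53* on chromosome II was the *fbxb* gene with the largest share of the family's level (11.05%). It had 69 and 285 counts in N2 and 81 and 77 in the mutant. N2 replicate 2 alone was high: the log2 fold change of −1.19 (SE 0.62) was −0.044 without it. *fbxb-53* and *fbxb-14* each overlap another annotated gene, and reads of overlapping genes cannot be told apart without strand.

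Of the other *fbxb* genes of highest level, *fbxb-69* had 3.26 and 3.96 CPM in N2 and 2.98 and 3.55 CPM in the mutant, with the strains overlapping. *fbxb-88* had 2.96 and 3.93 CPM in N2 and 4.66 and 3.96 CPM in the mutant, with the nearest libraries almost equal. *fbxb-14* had 1.57 and 1.18 CPM in N2 and 1.74 and 1.93 CPM in the mutant. The log2 fold changes of these 3 genes were −0.15, 0.32 and 0.42, none larger than 1.5 times its SE.

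Among the tested *fbxc* genes whose strains did not overlap, those with the smallest p mostly followed N2 replicate 2. *fbxc-51* on chromosome II had 237 and 916 counts in N2 and 181 and 190 in the mutant. The log2 fold change of −1.66 (SE 0.58, adjusted p 0.337 by edgeR's quasi-likelihood test) was −0.59 without N2 replicate 2. *fbxc-7*, also on chromosome II, had 68 and 237 counts in N2 and 58 and 70 in the mutant, and its log2 fold change of −1.29 (SE 0.57) was −0.33 without that library.

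*fbxc-43* had 26 and 48 counts in N2 and 14 and 19 in the mutant, a log2 fold change of −1.23 (SE 0.44) that was −0.89 without N2 replicate 2. *fbxc-47* on chromosome IV had 108 and 125 counts in N2 and 178 and 179 in the mutant. Its replicates were close and both mutant libraries were higher, with a log2 fold change of 0.52 (SE 0.26), although it overlaps other annotated genes.

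The *fbxc* genes of highest level differed little between strains. *fbxc-52* had 27.99 and 21.9 CPM in N2 and 31.5 and 26.5 CPM in the mutant. *fbxc-54* had 13.5 and 10.4 CPM in N2 and 13.3 and 13.4 CPM in the mutant, and *fbxc-41* had 11.01 and 14.4 against 12.2 and 15.1 CPM. In these 3 genes the strains overlapped. *fbxc-36* had 10.2 and 12.9 CPM in N2 and 8.26 and 8.82 CPM in the mutant, a log2 fold change of −0.44 (SE 0.24) with no overlap.

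No member had 0 counts in both libraries of one strain and at least 10 counts in both of the other. Presence in one strain only was thus not seen at that minimum. Below it, some low members had counts in one strain only. *fbxb-31* had 1 and 6 counts in N2 and 0 in both mutant libraries, and *fbxb-99* had 0 in both N2 libraries and 1 and 1 in the mutant. The median *fbxb* gene, at 1 to 7 counts, was too low for this rule to meet.

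The families were unevenly spread over the chromosomes. Of the *fbxa* genes, 80 lie on chromosome V and 68 on chromosome III. Chromosome II holds 62 *fbxb* and 39 *fbxc* genes, and 12 *fbxc* genes lie on chromosome IV. Pseudogene annotations covered 27 *fbxa*, 6 *fbxb* and 6 *fbxc* genes. Of the 27 *fbxa* pseudogenes 25 were detected and 14 tested, with a median log2 fold change of 0.10, beside −0.32 for the 118 tested protein-coding *fbxa* genes. The other families did not share this order. The 2 tested *fbxb* pseudogenes had a median of −0.89, beside −0.038 for protein-coding *fbxb* genes. The 2 tested *fbxc* pseudogenes had a median of 0.031, beside 0.064 for protein-coding *fbxc* genes.

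Of the 360 members matched to the annotation, 204 lay in 63 runs of at least 2 members, and 10 runs held 5 or more. Members of a run had no other protein-coding gene or pseudogene between them. Other kinds of gene were not considered. Neighbours in a run had like fold changes. Among 48 pairs of adjacent tested members, 39 (81.3%) had the same sign, beside 51.5% of all 16110 pairs of tested members. With one library left out, a setting added after seeing the data, 35 to 38 of the 48 pairs had the same sign. The median absolute difference of log2 fold change was 0.44 in adjacent pairs and 0.71 in all pairs. Pairs share genes and neighbouring copies may share sequence, so this is a description without a test.

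The run from *fbxa-185* to *fbxa-189* on chromosome V held *fbxa-186*, the member with the smallest p, and all 5 of its genes had positive log2 fold changes (median 0.70). *fbxa-187*, the next gene, had 0.732 and 0.665 CPM in N2 and 2.14 and 1.497 CPM in the mutant. At the end of the run, *fbxa-189* had 4.17 and 4.53 CPM in N2 and 4.41 and 5.11 CPM in the mutant, with the strains overlapping. The change was therefore unequal within the run.

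On chromosome III, all 5 genes of the run *fbxa-20*, *fbxa-80*, *fbxa-19*, *fbxa-15* and *fbxa-14* had negative log2 fold changes, with a median of −0.36, although *fbxa-15* was at 0.15 without N2 replicate 1. The run from *fbxa-21* to *fbxa-91* on the same chromosome also had 5 tested genes, of which 2 were positive and 3 negative (median −0.17). On chromosome II, the run of *fbxc-32*, *fbxc-41*, *fbxc-57* and *fbxc-7* had 1 positive and 3 negative genes (median −0.34). The run of 7 from *fbxb-26* to *fbxc-26* on chromosome II had 0 tested genes and summed to 2 and 38 counts in N2 and 6 and 9 in the mutant.

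**Figure D5:**
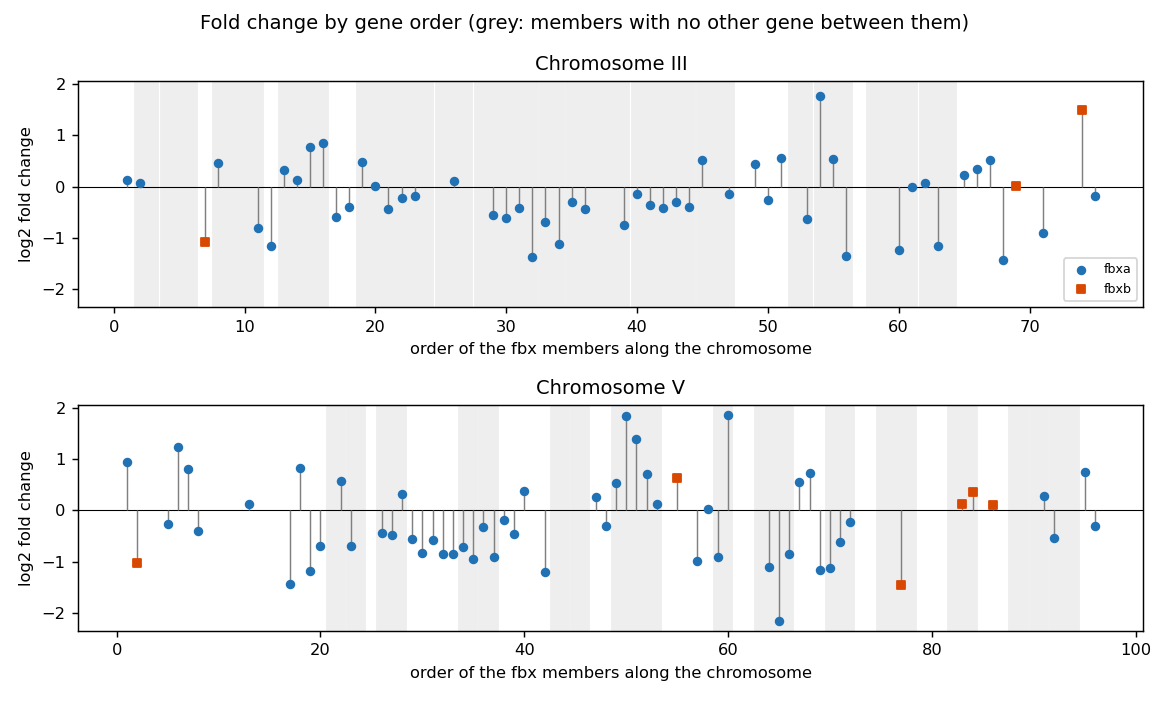
Log2 fold change (*pry-1(mu38)* over N2) of the tested *fbxa* (circles) and *fbxb* (squares) genes of chromosomes III and V, in the order in which the *fbx* genes lie on the chromosome. Grey bands mark runs of members with no other protein-coding gene or pseudogene between them. Adjacent genes of a run mostly point the same way (39 of 48 adjacent pairs over all chromosomes).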

How the data were processed

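TruSeq v2 cDNA libraries of whole L1 larvae, 2 of N2 and 2 of *pry-1(mu38)*, were sequenced by the authors. The deposited table holds raw read counts per gene, made by the authors after adapter trimming, a Phred filter and mapping to ce6. The sources name both Bowtie and BWA as mapper, and the counter, its annotation and its strand setting are not given in the sources used here. The table ends with 5 summary lines (reads outside genes, 5.32% to 6.75%, on several genes, and at several places), which were left out of library sizes and tests. Reads at several places counted for no gene, which lowers near-identical copies.

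Counts were tested as deposited with edgeR 4.0.16 in R 4.3.3 (TMM, filterByExpr with a minimum count of 10, quasi-likelihood fit, Benjamini-Hochberg over all 15101 tested genes, threshold 0.05). CPM, used for levels, are counts over the TMM-scaled library size. Medians over a family are descriptions, since its genes are not replicates. The test was also run on simulated counts, with a smaller spread than in these data and the same spread in both strains. That run does not check the test at the spread seen here. Chromosome, biotype, transcript length, overlaps and gene order came from the WBcel235 annotation, matched by name for 360 members, and 64 members overlap another gene. Coordinates are not printed because that build differs from ce6.

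The named genes were, per family, the 4 of highest CPM per kb and the 4 of smallest p among tested genes whose strains do not overlap, any called gene, any gene at 0 counts in both libraries of one strain with at least 10 counts in both of the other, and *fbxa-75* and *fbxa-158*. Members and lists were chosen with earlier results of these data known. Alternatives were DESeq2 1.42.0, edgeR's exact test, no TMM, quantile normalization, no filter, a mean count filter of 10, a replicate block, each library left out, a detection minimum of 10 counts, and thinning to the smallest library.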

Additional observations from a re-analysis of the deposited data

How the results depend on the processing

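With 2 libraries per strain and N2 replicates far apart, the number of calls depended on how the spread was modelled. For *fbxa* the adjusted calls went from 0 in the quasi-likelihood test to 7 with DESeq2, 5 with the exact test of edgeR, 6 with quantile normalization and DESeq2, and 0 to 33 with one library left out. For *fbxb* and *fbxc* these alternatives gave 0 calls, apart from a range of 0 to 6 and of 0 to 4 with one library left out. The replicate numbers are shared between strains by number only. The replicate block gave 17 calls for *fbxa*, 1 for *fbxb* and 2 for *fbxc*, where the background was 4.59% higher and 11.5% lower, and the correlation of the replicate deviations was 0.485 over genes.

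The *fbxa* median log2 fold change was −0.12 with quantile normalization, −0.20 without a filter and −0.40 to −0.11 with one library left out. The *fbxb* median was −1.04 without a filter, −0.54 with a mean count filter of 10 and −1.18 to 0.25 with one library left out and the filter applied anew, or −0.44 to 0.25 over the same 26 genes. The *fbxc* median was 0.16 with quantile normalization, −0.27 without a filter and −0.22 to −0.022 with one library left out. At a minimum of 10 counts, 45 *fbxb* genes were detected in at least 1 library.

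Leaving out one library, an alternative added after seeing the data for unadjusted p under 0.05, gave 5 to 28 higher and 2 to 40 lower *fbxa* genes, 0 to 2 higher and 0 to 17 lower *fbxb* genes, and 0 to 2 higher and 1 to 9 lower *fbxc* genes, the highest numbers without N2 replicate 1 except for higher *fbxb* genes. Among the 24 tested named genes, 227 of the alternative values kept direction and call, 33 kept direction and passed the threshold, and 4 changed sign: *fbxb-69* (0.081 with quantile normalization), *fbxc-54* (−0.028 without N2 replicate 2, range up to 0.39 with one library left out) and *fbxc-41* (−0.048 without N2 replicate 1, −0.040 without mutant replicate 2, range up to 0.30). The cause was not tested. Leaving out near-identical proteins was not run, since no protein sequences were used here. Low depth limits *fbxb* most, where the median gene had 1 to 7 counts.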
